A study of Mus musculus with 2 samples.

Results

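The Mir99/100, let-7 and Mir125 clusters are 3 related stretches of the mouse genome, each with a hairpin of the miR-99/100 family, a hairpin of the let-7 family and a hairpin of the miR-125 family in that order. Their 9 miRNA genes were named by symbol, with earlier results of these data known, from the 1973 miRNA genes of the count files. They are Mir99a, Mirlet7c-1 and Mir125b-2, then Mir100, Mirlet7a-2 and Mir125b-1, then Mir99b, Mirlet7e and Mir125a. Of these, 8 had a row of their own, and Mirlet7e was read from the opposite strand of the row of Gm25927. Small RNA was sequenced from total RNA of hearts of B6NCrl mouse embryos at embryonic day 15.5, healthy and of both sexes. There was 1 group with 2 biological replicates and no treatment or mutant allele in the labels. The hearts of 78 embryos were pooled for replicate 1 and those of 62 for replicate 2, so the spread between replicates is one between pools. The labels name the same mouse donor entry for both pools, and RNA was taken in the size range under 30 that the labels give without a unit. With no other group, the data answer how much of each cluster was counted in the embryonic heart and how alike the pools were.

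MicroRNAs (miRNAs) are short RNAs cut from hairpin precursors, which lower the output of mRNAs that pair with their seed, the bases 2 to 8 from the 5′ end. A hairpin can give a mature miRNA from its 5′ arm (5p) and from its 3′ arm (3p). let-7 and the miR-125 relative lin-4 were first known as timers of larval development in Caenorhabditis elegans. In Drosophila, miR-100, let-7 and miR-125 are made from a shared primary transcript. In mammals let-7 rises as tissues differentiate, and the RNA-binding protein Lin28 blocks its maturation. The miR-99/100 family is known to act on mTOR signalling.

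The 5p mature forms of the 9 genes are shown with their seeds in capitals, because they define the 3 families. They also decide which genes could be told apart by a read that matches in every letter. The letters are from RefSeq on GRCm38.p6, which listed mature forms under the symbols of all 9 genes. The entry of Mirlet7a-2 did not list let-7a-5p, and the sequence given was listed under Mirlet7a-1 and found by letter in the annotated hairpin of Mirlet7a-2.
miR-99a-5p: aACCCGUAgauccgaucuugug
miR-100-5p: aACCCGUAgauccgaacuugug
miR-99b-5p: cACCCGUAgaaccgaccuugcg
let-7c-5p: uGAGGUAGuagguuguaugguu
let-7a-5p: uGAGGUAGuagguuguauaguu
let-7e-5p: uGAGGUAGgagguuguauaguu
miR-125b-5p: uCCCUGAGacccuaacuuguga
miR-125a-5p: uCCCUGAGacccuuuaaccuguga
Counted from 1 at the 5′ end, miR-99a-5p differed from miR-100-5p by 1 substitution, A16U. miR-99b-5p differed from miR-100-5p by A1C, U11A, A16C and U21C. let-7c-5p differed from let-7a-5p by A19G and let-7e-5p from let-7a-5p by U9G.

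These letters divided the genes into 5 with mature forms found in no other annotated mouse hairpin and 4 with a 5p form that a second hairpin also holds. Mir99a, Mir100, Mir99b, Mirlet7e and Mir125a had no stretch of 20 bases in common with another annotated hairpin, nor any stretch of 18 bases of their mature forms. miR-125b-5p lies in both Mir125b-1 and Mir125b-2, within a shared stretch of 24 bases. let-7c-5p lies in Mirlet7c-1 and Mirlet7c-2 and let-7a-5p in Mirlet7a-2 and Mirlet7a-1, each within a shared stretch of 23 bases. At 18 bases, stretches of let-7a-5p and let-7c-5p were also found in each other's hairpins. Reads that match several places are in no gene count, so these 4 genes can be undercounted. Their 3p forms were found in no other hairpin and are shown, with bases 2 to 8 in capitals, as the forms by which these genes can be told from their copies.
let-7c-1-3p: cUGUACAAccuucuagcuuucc
miR-125b-2-3p: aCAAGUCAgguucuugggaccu
let-7a-2-3p: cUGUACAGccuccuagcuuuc
miR-125b-1-3p: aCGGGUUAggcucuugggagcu
Counts are per hairpin and do not separate the arms. Copies outside annotated hairpins were not searched. The comparison was by exact letters, and whether the alignment allowed mismatches is not given in the sources used here.

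**Figure D1:**
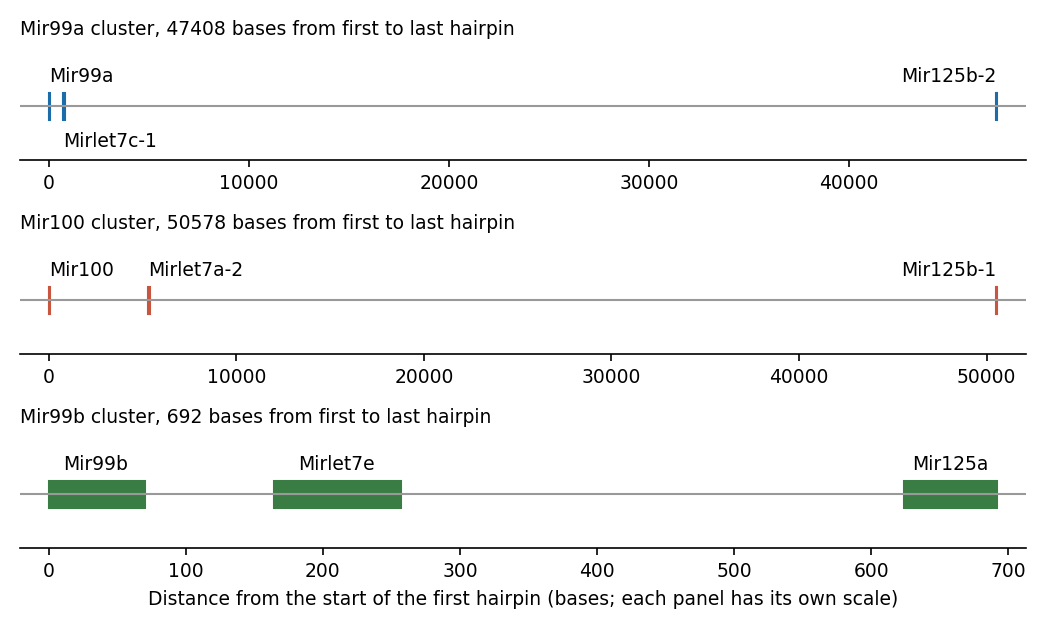
Hairpins of the 3 clusters drawn as boxes at scaled positions, with outlines that widen the boxes slightly in the upper panels, against the distance in bases from the start of the first hairpin, one panel per cluster with its own scale. The order of families is the same in each, while the Mir99b cluster spans 692 bases against 47408 and 50578 bases for the Mir99a and Mir100 clusters.

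Positions and overlaps are from GENCODE M21 on GRCm38 (mm10), and all 9 hairpins lie on the plus strand. The Mir99a cluster lies in introns of the long non-coding gene Mir99ahg. Mir99a (ENSMUSG00000065530.1) is at chr16:77598936-77599000 and lies, like Mirlet7c-1, opposite an intron of Gm11146. Mirlet7c-1 (ENSMUSG00000065557.2) follows 656 bases later at chr16:77599657-77599750. Mir125b-2 (ENSMUSG00000065472.1) lies a further 46522 bases on at chr16:77646273-77646343, where its 3′ end also reaches into an exon of C130023A14Rik. The Mir100 cluster lies in introns of the non-coding genes 3110039I08Rik and Gm49317. Mir100 (ENSMUSG00000093011.1) is at chr9:41531425-41531504, opposite an exon of the long non-coding gene Gm48742. Mirlet7a-2 (ENSMUSG00000092770.1) is at chr9:41536716-41536811, and Mir125b-1 (ENSMUSG00000093354.1) is at chr9:41581926-41582002, where it also overlaps an exon of Gm28119. The Mir99b cluster lies within the protein-coding gene Spaca6. Mir99b (ENSMUSG00000065396.1) is at chr17:17830188-17830257 and Mirlet7e at chr17:17830352-17830444, both in an intron. Mir125a (ENSMUSG00000065479.1), at chr17:17830812-17830879, overlaps an annotated exon of Spaca6.

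The unit of level is CPM, the count of a gene per 1000000 counts on the strands of all genes in that library, and it rests on 3439539 such counts in replicate 1 and 5833156 in replicate 2. The ± is the SD over both libraries (n = 2), and intervals are exact binomial (Clopper-Pearson) 95% intervals, which cover counting error within 1 library only. The files give no molecular identifiers for the reads, so the intervals take each read as separate. Reads that matched several places were 33.0% of reads in replicate 1 and 30.1% in replicate 2. miRNAs of heart muscle were counted in both libraries, where 7 counted genes summed to 62461 and 45595 CPM, as were those of smooth muscle (83564 and 89291 CPM) and endothelium (79217 and 67775 CPM). Of the heart muscle sums Mir208b gave 53878 and 37837 CPM, while Mir133a-1, Mir133a-2 and Mir1a-1 had between 1 and 7 counts in each library. The tissue is a mixture of cell types, so more cells of a type and more RNA per cell cannot be told apart.

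With the Mirlet7e counts added to the total, the 3 clusters together held 9.10% (9.07% to 9.13%) of the counts in replicate 1 and 9.28% (9.26% to 9.31%) in replicate 2. The Mir99a cluster had the highest sum at 61770 ± 2107 CPM, followed by the Mir99b cluster at 23351 ± 2500 CPM and the Mir100 cluster at 7248 ± 939 CPM. Mir99a by itself gave 68.5% and 64.0% of the counts of the 9 genes in replicates 1 and 2. The 4 genes with a 5p form shared with another hairpin summed to 1009 and 1113 CPM. The 5 genes without summed to 90418 and 92198 CPM.

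**Figure D2:**
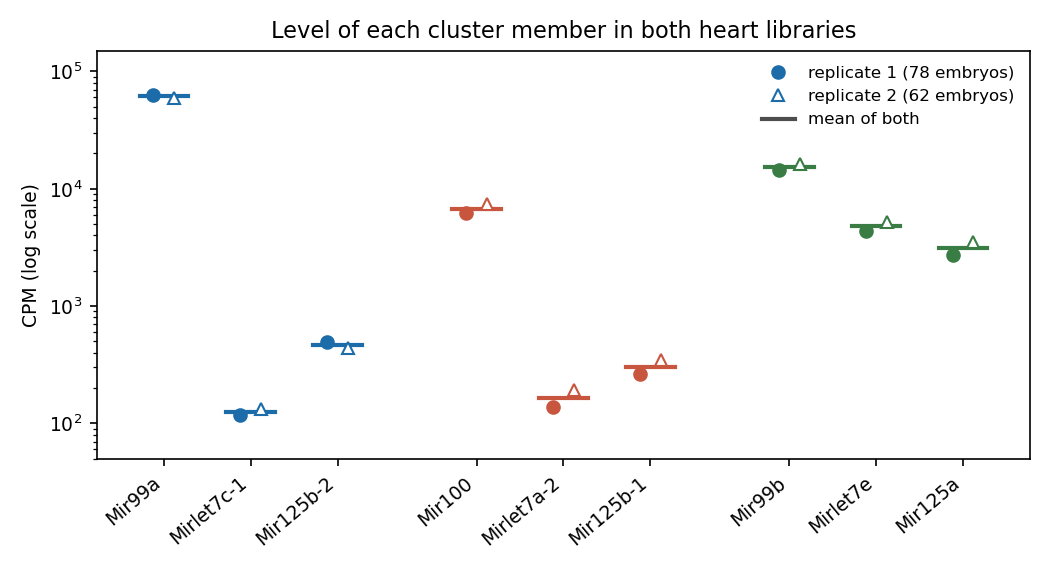
CPM (log scale) of each of the 9 genes in replicate 1 (filled circles) and replicate 2 (open triangles), with the mean of both as a bar. In each cluster the miR-99/100 gene is the highest, and Mirlet7c-1, Mir125b-2, Mirlet7a-2 and Mir125b-1 lie below 500 CPM while the other 5 lie at 2724 CPM or more in both libraries.

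The miR-99/100 genes had the most counts of their clusters. Reads that match several places are left out, which can lower the other genes of the Mir99a and Mir100 clusters. In replicate 1 Mir99a had 62651 CPM (62395 to 62907), and in replicate 2 it had 59707 CPM (59515 to 59900). Mir99b had 14499 CPM (14373 to 14626) and 16396 CPM (16293 to 16499). Mir100, the paralogue that differs from Mir99a by 1 base of the 5p form, had 6184 CPM (6101 to 6267) and 7372 CPM (7303 to 7442). The ranges of the 3 genes over the libraries did not overlap. The count of Mir99a was 10.1 times that of Mir100 in replicate 1 (interval 9.99 to 10.3) and 8.10 times in replicate 2 (8.02 to 8.18), a log2 ratio of 3.18 ± 0.23. Mir99a exceeded Mir99b by 1.99 ± 0.17 and Mir99b exceeded Mir100 by 1.19 ± 0.05 on the log2 scale.

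Of the counted genes with a RefSeq mature form, only these 3 have one with the seed ACCCGUA, so that this counted miR-99/100 family lay wholly in the clusters. Its sum was 83334 CPM in the first library and 83476 CPM in the second, or 83405 ± 100 CPM. The near relatives Mir10a and Mir10b of the Hox clusters have the seed ACCCUGU, and the form of Mir10a is shown for comparison with those of miR-99/100.
miR-10a-5p: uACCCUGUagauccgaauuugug
Mir10a had 2968 and 5452 CPM and Mir10b 1340 and 2171 CPM in replicates 1 and 2, each below the 3 miR-99/100 genes in its library.

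The let-7 genes of the clusters differed widely in counts. Mirlet7e had no row in the count table, and its hairpin lies wholly (93 bases) opposite Gm25927 (ENSMUSG00000092799.1, chr17:17830343-17830459, minus strand). The Gm25927 row held 0 counts on its own strand in either library, so 3 counts, or 0.872 and 0.514 CPM, bound that level in replicates 1 and 2. On the strand of Mirlet7e the row held 14998 counts in replicate 1 and 30344 in replicate 2, equal to 4360 CPM (4291 to 4431) and 5202 CPM (5144 to 5261) on the same scale. These counts are not among the totals that set the scale. Of 1973 rows, 16 held at least 10 opposite-strand counts in both libraries, and Gm25927 was second among them. The 8 other genes of the clusters had 0 opposite-strand counts in both libraries.

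Mirlet7a-2 had 474 and 1119 counts, or 138 CPM (126 to 151) in replicate 1 and 192 CPM (181 to 203) in replicate 2. Mirlet7c-1 had 402 and 775 counts, or 117 CPM (106 to 129) and 133 CPM (124 to 143). Mirlet7c-1 lay below Mirlet7a-2 in both libraries, by a log2 ratio of -0.38 ± 0.21, although the highest value of Mirlet7c-1 came within the interval of the lowest of Mirlet7a-2. The copies with the same 5p forms elsewhere in the genome were low too, with Mirlet7a-1 at 127 and 166 CPM and Mirlet7c-2 at 75.6 and 104 CPM. In those 2 copies the 3p form too is shared, since let-7a-1-3p and let-7c-2-3p are the same sequence.

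The miR-125 genes of the clusters summed to 3894 ± 587 CPM. They had the lowest sum of the 3 families, below the cluster let-7 genes at 5071 ± 645 CPM. In both families 2 of the 3 genes have shared 5p forms and can be undercounted, so this order is one of counted reads. In replicate 1 Mir125a had 2724 CPM (2669 to 2780), and in replicate 2 it had 3521 CPM (3473 to 3569). Mir125b-2 had 493 CPM (469 to 517) and 440 CPM (423 to 457), and Mir125b-1 had 262 CPM (245 to 280) and 348 CPM (333 to 364). Mir125a exceeded the sum of both Mir125b genes by a log2 ratio of 2.01 ± 0.22. Because the 5p form of both Mir125b genes is the same, the ratio describes counted reads and the mature miRNAs can stand in another ratio. Mir125b-2 exceeded Mir125b-1 by a factor of 1.88 (1.73 to 2.04) in replicate 1 and 1.26 (1.19 to 1.34) in replicate 2, a log2 ratio of 0.62 ± 0.40. Full-length reads of the shared 5p form match both hairpins, and the files do not say which arm the counted reads came from.

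**Figure D3:**
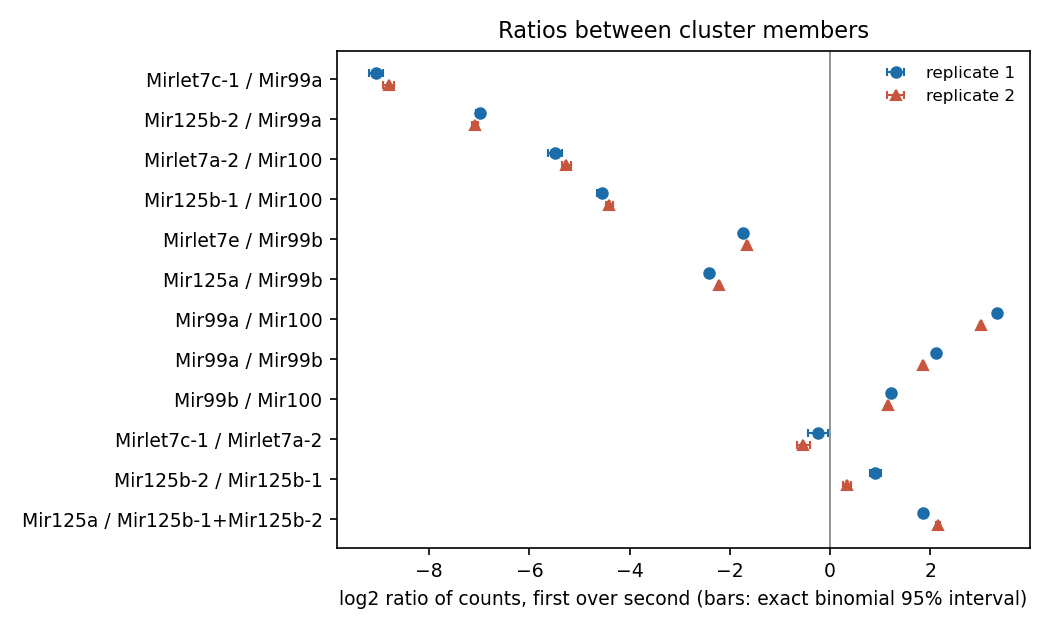
The log2 ratio of counts, first gene over second, for the 12 pairs in replicate 1 (circles) and replicate 2 (triangles), with exact binomial 95% intervals as bars. Within clusters the ratios to the miR-99/100 gene reach -9.07 for Mirlet7c-1 and lie between -2.41 and -1.66 in the Mir99b cluster.

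Within a cluster, ratios of counts do not depend on how the libraries are scaled. In the Mir99a cluster, the log2 ratio to Mir99a was -8.94 ± 0.18 for Mirlet7c-1 and -7.04 ± 0.07 for Mir125b-2. In the Mir100 cluster, the log2 ratio to Mir100 was -5.38 ± 0.16 for Mirlet7a-2 and -4.48 ± 0.11 for Mir125b-1. In the Mir99b cluster no mature form was found in another annotated hairpin. There the log2 ratio to Mir99b was -1.69 ± 0.05 for Mirlet7e and -2.32 ± 0.14 for Mir125a. As shares of the cluster's counts, the let-7 gene held 0.203% ± 0.025 in the Mir99a cluster, 2.26% ± 0.23 in the Mir100 cluster and 20.5% ± 0.36 in the Mir99b cluster. The miR-125 gene held 0.754% ± 0.034, 4.19% ± 0.30 and 13.3% ± 0.99 in the same clusters. So the let-7 gene had fewer counts than the miR-125 gene in the Mir99a and Mir100 clusters and more in the Mir99b cluster, in both libraries. The let-7 and miR-125 genes of the Mir99a and Mir100 clusters have shared 5p forms and can be undercounted. Their ratios and shares thus describe counted reads, and those of the mature miRNAs can differ.

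All 12 ratios had the same direction in both libraries and a mean beyond its SD. The counting intervals of the 2 libraries overlapped for 3 of the 12, which were Mir125b-2 to Mir99a, Mir125b-1 to Mir100 and Mirlet7c-1 to Mirlet7a-2. For the other 9 the intervals were separate, so the libraries differed beyond counting error. Overlap is not a test of equality, and whether the 3 ratios differed between libraries was not tested.

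**Figure D4:**
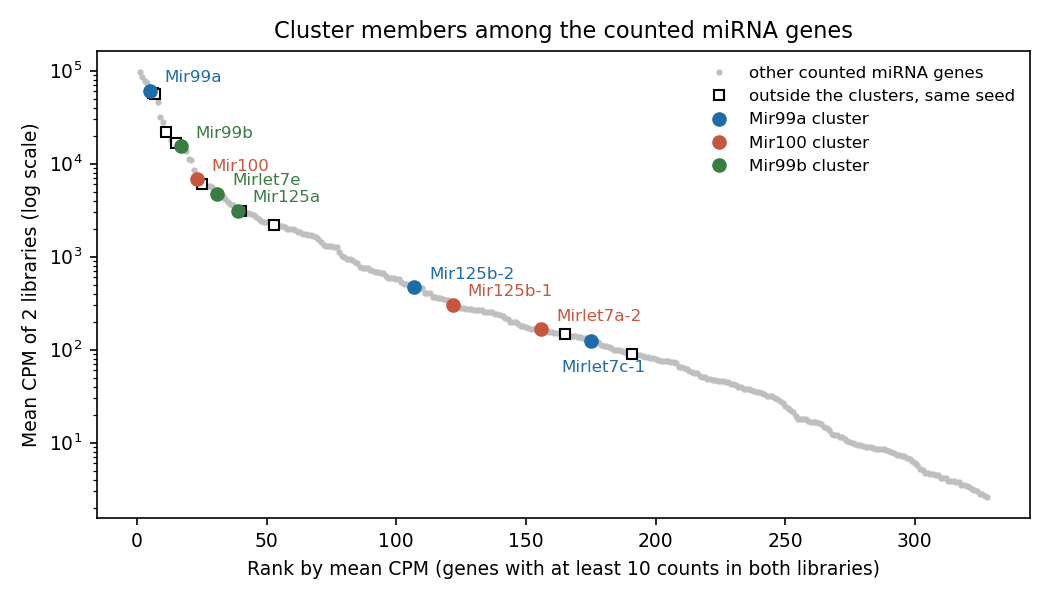
Mean CPM of both libraries (log scale) against rank for the counted miRNA genes with at least 10 counts in both libraries, with Mirlet7e added. Coloured circles are the 9 cluster genes and open squares the genes outside the clusters with the let-7 or miR-125 seed. The 5 genes with distinct mature forms lie at ranks 5 to 39 and the other 4 at ranks 107 to 175.

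Among 328 miRNAs with at least 10 counts in both libraries, Mirlet7e included, Mir99a ranked 5, Mir99b 17, Mir100 23, Mirlet7e 31 and Mir125a 39. The genes with shared 5p forms ranked 107 (Mir125b-2), 122 (Mir125b-1), 156 (Mirlet7a-2) and 175 (Mirlet7c-1). The 9 genes stood in this same order in both libraries, and no 2 adjacent ones had overlapping values, although Mirlet7a-2 at its lowest (138 CPM) was close to Mirlet7c-1 at its highest (133 CPM). Among the counted genes whose hairpin holds a listed mature form, 42 of 332 with a form found in another hairpin reached at least 10 counts in both libraries (12.7%), with a median of 67.4 CPM. Of those with no form found elsewhere 258 of 810 did (31.9%), with a median of 158 CPM. The 4 cluster genes with a shared form are themselves among those 42 and lay above their median. The highest of the 42 was Mirlet7f-2 at 2180 CPM.

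The miRNAs nearest in mean level over the 2 libraries, the next above and below, gave 18 comparisons, of which 15 had overlapping values. Mir99a lay between the endothelial Mir126a (79217 and 67775 CPM) and Mirlet7i (56802 and 59490 CPM). The values of Mir99a overlapped with neither, but in replicate 2 Mir99a (59707 CPM) was close to Mirlet7i. Mir99b lay between Mir21a, a miRNA known from fibroblasts (16312 and 15722 CPM), and Mir17 of the Mir17-92 cluster (14688 and 14992 CPM). Mir100 lay below Mir22 (9044 and 8024 CPM) without overlap and above Mir411 of the Dlk1-Dio3 region (5226 and 7057 CPM). Mirlet7e had Mir151 and Mir127 as neighbours, at 0.02 and 0.09 on the log2 scale. Mir125a stood between Mir369 and Mirlet7b, at 0.0070 and 0.0083. Mir125b-2 had Mir154 and Mir183 beside it, and Mir125b-1 had Mir215 and Mir374b. Mirlet7a-2 had Mir30b and Mir494, and Mirlet7c-1 had Mir362 and the heart muscle miRNA Mir490. Values within a library could lie further apart than the means, as for Mir183 (152 and 778 CPM) and Mir215 (403 and 250 CPM). The likeness is one of level over 2 libraries of 1 tissue.

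Set against other miRNAs with the same seeds, the clusters held a small share of the counted let-7 and miR-125 families. The counted let-7 family had 13 genes, 10 of them outside the clusters, and summed to 147787 ± 4621 CPM with Mirlet7e included. The 3 cluster genes gave 3.19% (3.14% to 3.24%) of it in replicate 1 and 3.66% (3.62% to 3.70%) in replicate 2. Mirlet7i (58146 ± 1901 CPM), Mirlet7g (56410 ± 68.7 CPM) and Mirlet7d (16613 ± 1102 CPM) led the family, and Mir98 (6025 ± 350 CPM) was above Mirlet7e too. Below Mirlet7e came Mirlet7b (3105 ± 569 CPM) and Mirlet7f-2 (2180 ± 76.3 CPM), and Mir1961 and Mir7k had 0 counts in both libraries. Mirlet7f-1 was not analysed here. Since full-length let-7a-5p and let-7c-5p reads match several places, and so do those of the outside genes Mirlet7a-1, Mirlet7c-2 and Mirlet7f-2, these shares describe the counts and can lie above or below those of the mature miRNAs.

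The miR-125 seed CCCUGAG was carried by 6 counted genes and their sum was 25974 ± 3152 CPM. The 3 cluster genes gave 14.7% (14.4% to 14.9%) of it in replicate 1 and 15.3% (15.1% to 15.5%) in replicate 2. The remainder came from Mir351 of the X-linked Mir322 cluster, whose 5p form is shown because it has the seed of miR-125.
miR-351-5p: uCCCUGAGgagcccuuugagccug
In the first library Mir351 had 20266 CPM and in the second 23893 CPM, while Mir6367 and Mir6394 had 0 counts in both. In counts, the seed of miR-125 was thus carried mostly by Mir351, with reads that match several places left out.

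**Figure D5:**
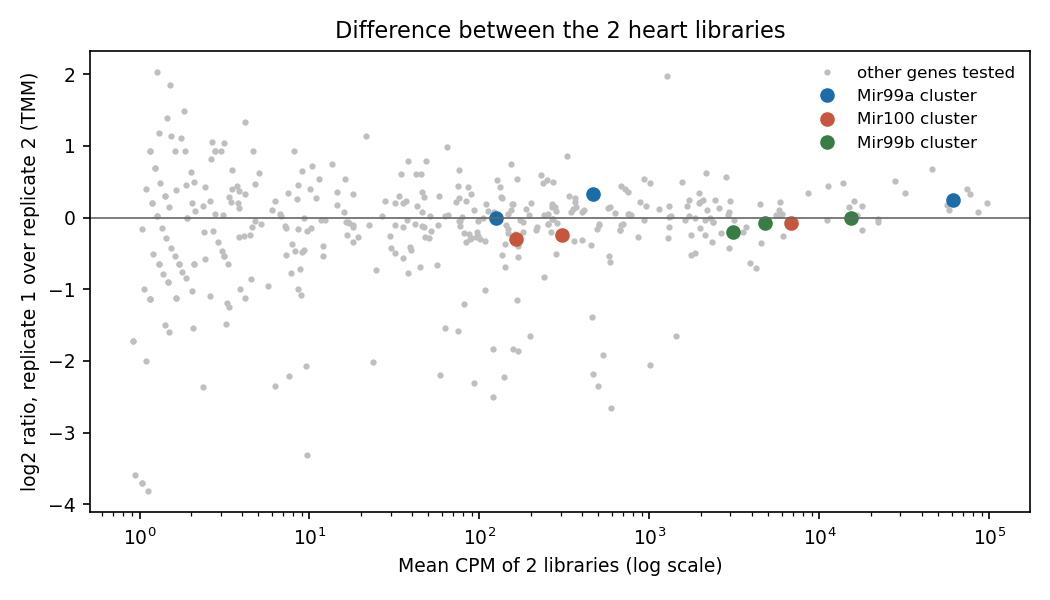
The log2 ratio of replicate 1 to replicate 2 after scaling by trimmed means (TMM) against the mean CPM (log scale) for the 414 miRNAs tested. The 9 cluster genes, in colour, lie between -0.30 and 0.34, while all tested miRNAs lie between -3.82 and 2.03.

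The libraries were also compared miRNA by miRNA, with a two-sided exact binomial test at TMM-scaled library sizes and Benjamini-Hochberg adjustment over 414 miRNAs. The test sets 1 library against the other beyond counting noise and compares no conditions. It called 46.6% of all miRNAs tested, 21.7% higher and 24.9% lower in replicate 1, and 69.8% of the 252 with a mean of at least 100 counts, as all 9 cluster genes have. Of the 9, 7 were called, 2 higher and 5 lower in replicate 1, a share near that of equally well counted miRNAs. Their median log2 ratio of replicate 1 to replicate 2 was -0.08, with a median size of 0.20, beside -0.01 and 0.22 for the 252. Scaling by total counts moved every log2 ratio by -0.17 and changed the split of calls over the table from 90 higher and 103 lower to 48 and 156.

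Mir125b-2 was higher in replicate 1 by a log2 ratio of 0.34 (exact test, adjusted p = 8.26e-13), with 1694 counts there and 2567 in the deeper replicate 2. Mir99a was higher by 0.24 and passed the test as well. Mirlet7a-2 was lower in replicate 1 at -0.30 (exact test, adjusted p = 0.000322) and Mir125b-1 at -0.24 (adjusted p = 0.000119, same exact test). Mir125a was lower at -0.20, Mirlet7e at -0.08 and Mir100 at -0.08, with exact adjusted p values of 1.56e-27, 5.35e-08 and 1.07e-10. These 7 kept their direction by total counts and by DESeq2 size factors. Mir99b had a log2 ratio of -0.0045 (exact adjusted p = 0.707) and Mirlet7c-1 one of -0.01 (exact adjusted p = 0.951), and their sign turned with DESeq2 size factors, by which Mir99b was called higher. The 3 genes of the Mir100 cluster were thus lower in replicate 1 and those of the Mir99a cluster were not, with 2 higher and 1 not called.

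The libraries differed in markers of other cell types at the same time. The levels given here are CPM, scaled by total counts and not by TMM. Of the 4 heart muscle genes with at least 10 counts in both libraries, 3 had more CPM in replicate 1 than in replicate 2. Mir490 had 118 and 126 CPM, but a log2 ratio of 0.07 after TMM scaling, which was not called (exact test, adjusted p = 0.554). All 7 epithelium genes had fewer CPM in replicate 1, with sums of 1821 CPM in the first library and 6297 CPM in the second, none of them being at 0. The erythroid list summed to 2457 and 1095 CPM, of which Mir451a gave 1975 and 564 CPM. Mir144 (401 and 422 CPM) and Mir486 (80.8 and 110 CPM) had fewer CPM in replicate 1. After TMM scaling Mir144 turned to a log2 ratio of 0.10 and was not called (exact test, adjusted p = 0.0839), while Mir486 stayed lower at -0.27. The leukocyte list summed to 480 and 702 CPM and the neural list to 44.5 and 236 CPM in replicates 1 and 2. Nearly all of the neural sum came from Mir137, at 44.2 and 234 CPM. The neural Mir124a-1, Mir124a-2, Mir124a-3 and Mir9-2 were at 0 counts in both. The liver miRNA Mir122 had 87.2 and 309 CPM and the skeletal muscle miRNA Mir206 73.3 and 102 CPM. Their part in the differences of the cluster genes between libraries was not tested.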

How the data were processed

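Small RNA from 2 pools of embryonic mouse hearts was analysed from the authors' deposited counts. These are whole read counts per miRNA gene in 3 columns (either strand, the gene's strand, the opposite strand), made on mm10 with GENCODE M4, per the text files deposited with them. Not given in the sources used here are the aligner, the adapter trimming and the program that counted. The column layout was read from the values, where both strands sum to the first column in 1973 of 1973 rows. Lines that name no gene stayed out of totals: unmapped reads (13.1% and 15.1% in replicates 1 and 2), multiply matching reads (33.0% and 30.1%) and reads on no annotated gene's strand (5.11% and 5.07%). IDs were matched without version to GENCODE M21 (1894 of 1973), and hairpins and mature forms were compared by letter. Scaling used TMM (edgeR 4.0.16, R 4.3.3; factors 0.942 and 1.06), and miRNAs with at least 10 counts summed were tested at a threshold of 0.05, with Mirlet7e added as 1 row and 0.5 counts added for log2 ratios between libraries. edgeR's quasi-likelihood test has no residual degrees of freedom here. Alternatives were total counts, DESeq2 1.42.0 size factors, a filter of 1 count summed, either strand, all reads as the scale, and each replicate left out. Named genes were the members, their neighbours in level, genes with the same seeds and Mir10a and Mir10b. The members, lists and tests were chosen with earlier results of these data known. Procedures were tested on simulated data. Python 3.11.15, numpy 2.4.6, pandas 2.3.3, scipy 1.17.1 and matplotlib 3.10.9 were used.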

Additional observations from a re-analysis of the deposited data

Results flagged for a closer look

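Reads that match several places lie outside every gene count. Their share was 33.0% of all reads for replicate 1 and 30.1% for replicate 2, a signal in data that no gene level uses. The files do not say which miRNAs these reads belong to. The 5p forms let-7a-5p, let-7c-5p and miR-125b-5p are each held by 2 annotated hairpins, so full-length reads of them match more than 1 place, but how many of the reads are theirs was not tested. Groups of 2 samples are too small for a search for outlying samples.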

How the results depend on the processing

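Per 1000000 of all reads, instead of counts on miRNA genes, the cluster sums were 30398 (Mir99a), 11503 (Mir99b) and 3571 (Mir100), in the same order. With counts on either strand as the scale the Mir99a cluster came to 58486 CPM. The cluster genes alone summed to 5071 CPM for the let-7 seed and 3894 CPM for the miR-125 seed. By total counts 48 miRNAs were called higher and 156 lower in replicate 1. The log2 ratio of replicate 1 to replicate 2 turned to 0.029 for Mirlet7c-1 and 0.035 for Mir99b with DESeq2 size factors, where Mir99b passed the test, and to 0.0016 for Mir99b with counts on either strand. For Mir99b it was -0.18 and passed the test by total counts. The cause was not tested. The levels of the 9 genes moved by more than the SD when scaled to all reads, as did that of Mir99a on either strand. Of the other values, 31 sums, ratios and counts of calls kept their direction and side of the threshold or moved by less than the SD. So did 58 values on single genes. Part of both tallies could hardly change. Adding 0.5 counts barely moves the 12 ratios, whose genes had at least 402 counts. The seed family of Mir99a has the same counted genes in the clusters alone. A filter of 1 count summed cannot move the log2 ratios of the 9 genes between libraries, only their adjusted p. Such values say little of stability. Leaving out 1 of 2 replicates cannot move a level or ratio by more than the SD, and ratios on either strand are the same by construction, so these 48 and 18 values say nothing of stability. No paired analysis was possible because there is 1 group. Of the 9 genes, the 4 with shared 5p forms had the fewest counts, the lowest being 402. Reads that match several places are left out of their counts at any depth. Nothing in the labels says whether the libraries were prepared together.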
